A study of Rattus norvegicus with 9 samples.

Results

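Rat whole blood kept with a gelatin sponge (GS) was compared with untreated blood (Control) by RNA sequencing, across the genes whose FPKM passed 0.1 in 3 or more of the 9 libraries of the study. FPKM is the number of sequenced fragments scaled by transcript length and library size. By this rule 3561 of the 12854 genes in the authors' table were described. At the edge of the rule, 333 genes passed 0.1 FPKM in exactly 3 libraries and 531 genes passed it in only 2 and were left out. Of the genes that entered, 12 did so through the 3 Control libraries alone and 0 through the 3 GS libraries alone, and none of these 12 passed the test below. Some genes that passed it, among them Itgb5, Socs3, AABR07029581.1 and ENSRNOG00000067483, were under 0.1 FPKM in every GS library. These genes entered only through libraries of the other groups, so their falls are not independent of the rule.

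The GS group held 3 libraries of fresh whole blood incubated with GS for 15 min. The DNAgel group held 3 libraries of blood incubated for 15 min with a hydrogel of crosslinked salmon sperm DNA, and its values enter here through the shared fit and as levels beside the other groups. The Control group held 3 libraries of blood with no material, for which no incubation time is given, so time in the tube and contact with GS cannot be told apart. GS is a commercial porous sponge of denatured collagen used in surgery to stop bleeding. The study used male Sprague-Dawley rats 6 weeks old. No genotype or other treatment is given for any group. Whether separate animals gave the blood of each library is not given in the sources used here. A p-value below thus reflects the scatter among the sampled tubes, and that scatter may be technical. The sources used here give no step for recovering cells from the sponge before RNA extraction. Each value is an average over red cells, platelets and white cells, so fewer cells of a type and less RNA per cell cannot be told apart.

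White cells answer physical contact, cooling, stimulation and simple standing in a tube by switching on immediate-early genes within minutes. These genes encode transcription factors such as the AP-1 proteins Fos and Jun, and feedback factors such as Zfp36 and Socs3 that destroy cytokine messengers or stop receptor signaling. Their messengers are short-lived, so the level follows recent transcription closely. The endoplasmic reticulum chaperones, led by Hspa5 (BiP), fold secreted and membrane proteins and are the classic targets of the unfolded protein response. Red cells and platelets have no nucleus and carry messengers left from their precursors, which cannot be renewed by transcription.

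Hemoglobin messengers took most of every library. In the GS libraries the hemoglobin genes held 91.7% ± 0.766 of the summed FPKM, against 89.9% ± 1.30 in the Control libraries (SD, n = 3 each). The difference of 1.80 percentage points gave p = 0.1 in a two-sided exact permutation test, which is the smallest p that 3 libraries against 3 can give, and GS 2 (90.9%) and Control 2 (90.9%) were nearly equal. The libraries held 51838917 to 68076324 estimated counts. Outside hemoglobin the GS libraries held 2344910 to 2673551 counts, against 2779554 to 3216776 in the Control libraries, with no overlap between the groups (exact permutation p = 0.1). The part of this difference in the results below was not tested, and with the hemoglobin genes left out of the fit, an alternative chosen after seeing the data, 23 genes were lower and 1 was higher in GS. Genes with a count numbered 6029 to 7125 in GS libraries and 6905 to 8417 in Control libraries, and the library Control 3 stood apart at the upper end. The plot of hemoglobin share, remaining counts and detected genes by library shows these values.

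**Figure D1:**
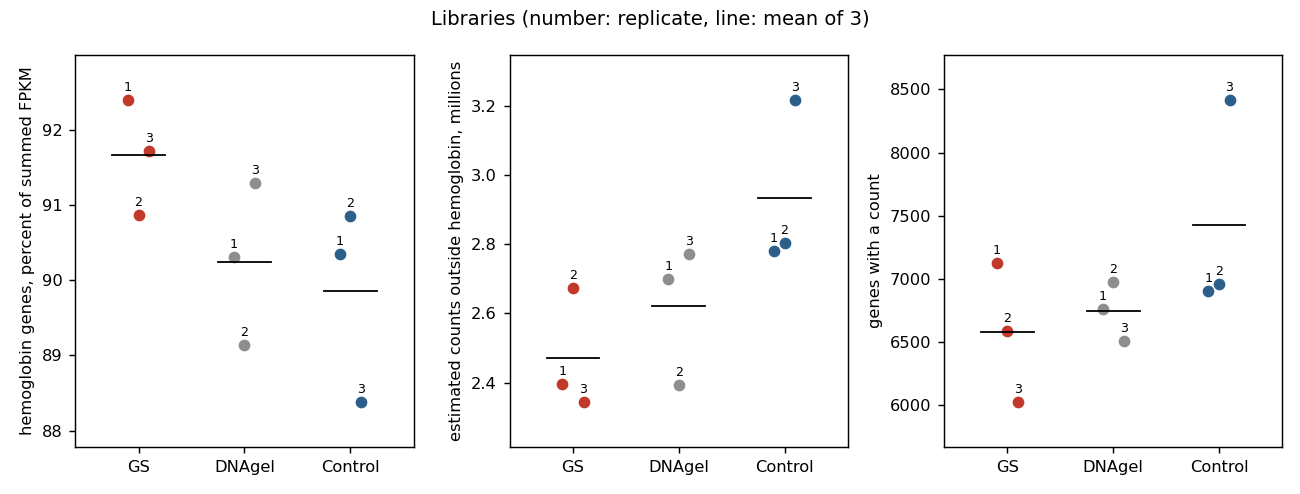
Hemoglobin share of summed FPKM (percent), estimated counts outside hemoglobin (scaled as on the axis) and number of genes with a count, for the 3 GS, 3 DNAgel and 3 Control libraries (points numbered by replicate, lines at the means; the vertical axes do not start at 0). The GS libraries held 2344910 to 2673551 counts outside hemoglobin, all below the Control libraries at 2779554 to 3216776.

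The labelled tissue was checked against markers of its cells. The red cell markers Hba-a2 (alpha globin), Alas2 (the first enzyme of heme synthesis) and Slc4a1 (the anion exchanger band 3) and the platelet chemokine Pf4 were present in all 9 libraries. The neutrophil markers S100a8 and S100a9 were also present in every library. The monocyte marker Cd14 had a count in 0 of 3 GS and 0 of 3 Control libraries. The eosinophil and basophil markers Epx, Prg2 and Fcer1a and the endothelial marker Cdh5 had no entry under these symbols in the authors' table.

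More genes were lower than higher in GS blood. The lower genes included the immediate-early genes Fos, Jun, Zfp36 and Id2, the chaperone Hspa5, Apoe and entries without a usable symbol. At an adjusted p under 0.05 (edgeR quasi-likelihood test with Benjamini-Hochberg adjustment over 3561 genes), 22 genes, 0.618% of those tested, were lower in GS than in Control and 1 gene, 0.0281%, was higher. At an unadjusted p under 0.05 the numbers were 224 lower (6.29%) and 91 higher (2.56%). The median log2 fold change over all genes tested was -0.04, and 1913 genes (53.7%) lay below 0. On the scaled counts, every GS library was below every Control library for 382 genes (10.7%) and above for 231 genes (6.49%). The cutoffs of the study (an adjusted p under 0.01 together with a log2 difference of more than 2 in size) were met by 2 genes (0.0562%). The 22 genes that fell had a mean FPKM over the 9 libraries between 0.0738 and 3.88, with a median of 0.610, against a median of 0.283 over all genes tested. With the replicate number as a block the number of genes lower in GS was 9 over all 9 libraries and 0 with the GS and Control libraries alone, where the lowest adjusted p was 0.130 and 179 genes lower and 77 higher passed an unadjusted p under 0.05. Without Control 1, Control 2, Control 3 or GS 1 the count was 4, 4, 7 or 5. The genes Hspa5, Zfp36, ENSRNOG00000050647 and ENSRNOG00000067483 passed the test whichever of the 9 libraries was left out, and all 22 genes had a log2 fold change below 0 in every alternative in which they were tested.

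**Figure D2:**
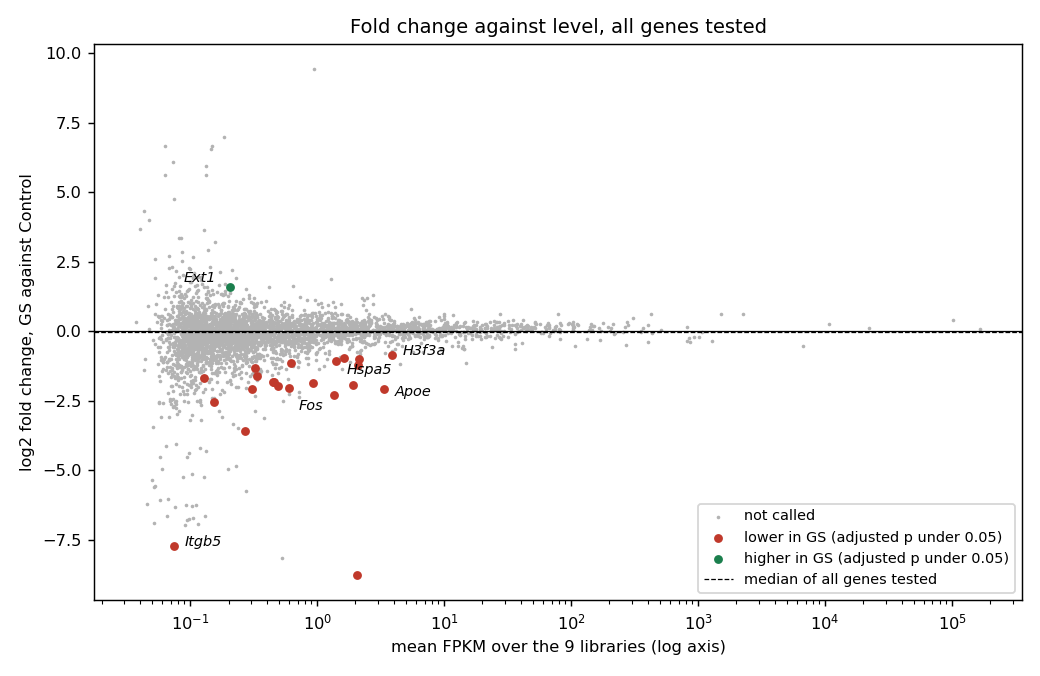
Log2 fold change of GS against Control (vertical axis) against mean FPKM over the 9 libraries (horizontal log axis) for the 3561 genes tested, with genes past an adjusted p of 0.05 in color. The 22 genes lower in GS lie between 0.0738 and 3.88 FPKM, and the 1 higher gene is Ext1.

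Of the AP-1 transcription factors Fos and Jun were lower in GS blood. Fos had 0.236, 0.636 and 0.159 FPKM in the GS libraries, against 1.96, 2.00 and 1.77 FPKM in the Control libraries. All 3 GS libraries were below all 3 Control libraries, with GS 2 the highest of the GS group. The log2 fold change of Fos was -2.31 ± 0.37 (SE, adjusted p = 0.0157, edgeR). Jun, the main dimer partner of Fos, had 0.0969, 0.253 and 0.0605 FPKM in GS, against 0.629, 0.445 and 0.764 FPKM in Control. Its groups did not overlap either, and GS 2 was again nearest to the Control libraries. The log2 fold change of Jun was -1.98 ± 0.39 (adjusted p = 0.0324, edgeR). Fos passed the test in 17 of 22 alternatives and Jun in 8 of the 21 in which it was tested.

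The other members of this list did not pass. Fosb, a close relative of Fos, had 0.0413, 0.117 and 0 FPKM in GS and 0.468, 0.472 and 0.649 FPKM in Control (log2 fold change -3.10 ± 0.63, adjusted p = 0.0572, edgeR). Jund, which unlike Jun is made in resting cells, had 0.309, 0.369 and 0.604 FPKM in GS and 1.09, 1.13 and 1.08 FPKM in Control (log2 fold change -1.19 ± 0.28, adjusted p = 0.0863, edgeR). The groups of both genes did not overlap, and both passed in DESeq2, which called 4 of the 6 genes of this list. Among all 3561 genes tested DESeq2 called 46 lower and 6 higher. The stress factor Atf3 was at 0 in all GS libraries and also in Control 3, with 0.142 and 0.135 FPKM in the other Control libraries. Of the 6 tested AP-1 and related genes, 2 fell, 0 rose and 5 had a log2 fold change below 0 (0.618%, 0.0281% and 53.7% of all genes). Their median was -2.14, or -1.75 with Atf3 at the lowest level that its 0 counts allow, against -0.04 over all genes tested. Fosl1 was the exception in sign, at 0.29 ± 0.34 (adjusted p = 0.896, edgeR).

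Among the other immediate-early genes Zfp36 and Id2 fell. Zfp36 encodes tristetraprolin, which binds AU-rich messengers such as that of tumor necrosis factor and marks them for decay. It had 0.200, 0.379 and 0.291 FPKM in GS libraries, against 1.11, 1.24 and 1.24 FPKM in Control libraries. The 2 groups were far apart relative to their spread, and the log2 fold change was -1.85 ± 0.26 (adjusted p = 0.00516, edgeR). Id2, an inhibitor of basic helix-loop-helix transcription factors, had 0.0687, 0.122 and 0.0557 FPKM in GS and 0.362, 0.319 and 0.603 FPKM in Control. Control 3 was the highest library of Id2, and every GS library was under every Control library. Its log2 fold change was -2.07 ± 0.39 (adjusted p = 0.0257, edgeR).

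Of the 16 tested members of the immediate-early list, 2 fell (0.618% of all genes did) and 14 were not called. A log2 fold change below 0 was seen in 15 of the 16 (53.7% of all genes), and the median was -1.30. On the scaled counts 10 of the 16 had all GS libraries below all Control libraries, where 10.7% of all genes tested did. Egr1, a zinc finger factor induced by serum and mechanical stimuli, had 0.0547, 0.189 and 0.117 FPKM in GS and 0.414, 0.361 and 0.372 FPKM in Control (adjusted p = 0.124, edgeR). Klf6, another zinc finger factor, had 0.00994, 0.136 and 0.0506 FPKM in GS and 0.316, 0.289 and 0.266 FPKM in Control (adjusted p = 0.112, edgeR). Neither pair of groups overlapped. Myc was at 0 in all GS libraries, with 0.124, 0.0439 and 0.115 FPKM in Control (adjusted p = 0.162, edgeR). Btg1 and Btg2, which slow cell division and are made in quiet lymphocytes, had log2 fold changes of -0.37 ± 0.21 and -0.55 ± 0.27 and did not pass. Gadd45a was the member above 0, at 0.20 ± 0.68. DESeq2 called 4 of the 16, which were Id2, Zfp36, Klf6 and Myc, all lower in GS.

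Inflammatory feedback genes held 1 call. Socs3, the inhibitor of signaling by interleukin 6 type cytokines, had 0.0373, 0.0284 and 0.0376 FPKM in GS, against 0.174, 0.228 and 0.317 FPKM in Control. The 3 GS values were close together and all were under the lowest Control value. The log2 fold change was -2.53 ± 0.43 (adjusted p = 0.019, edgeR). Cebpb, a transcription factor of the acute phase and of myeloid cells, had 0.0481, 0.0912 and 0.0544 FPKM in GS and 0.176, 0.253 and 0.261 FPKM in Control (adjusted p = 0.112, edgeR). Nfkbia, which holds NF-kappaB in the cytoplasm and is itself a target of NF-kappaB, had 0.0857, 0.212 and 0.184 FPKM in GS and 0.441, 0.256 and 0.786 FPKM in Control (adjusted p = 0.268, edgeR). All 8 tested members had a log2 fold change below 0 (53.7% of all genes did), with a median of -1.52, and 7 of them were not called. Il1b, the cytokine interleukin 1 beta, stood at -0.51 ± 0.47.

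**Figure D3:**
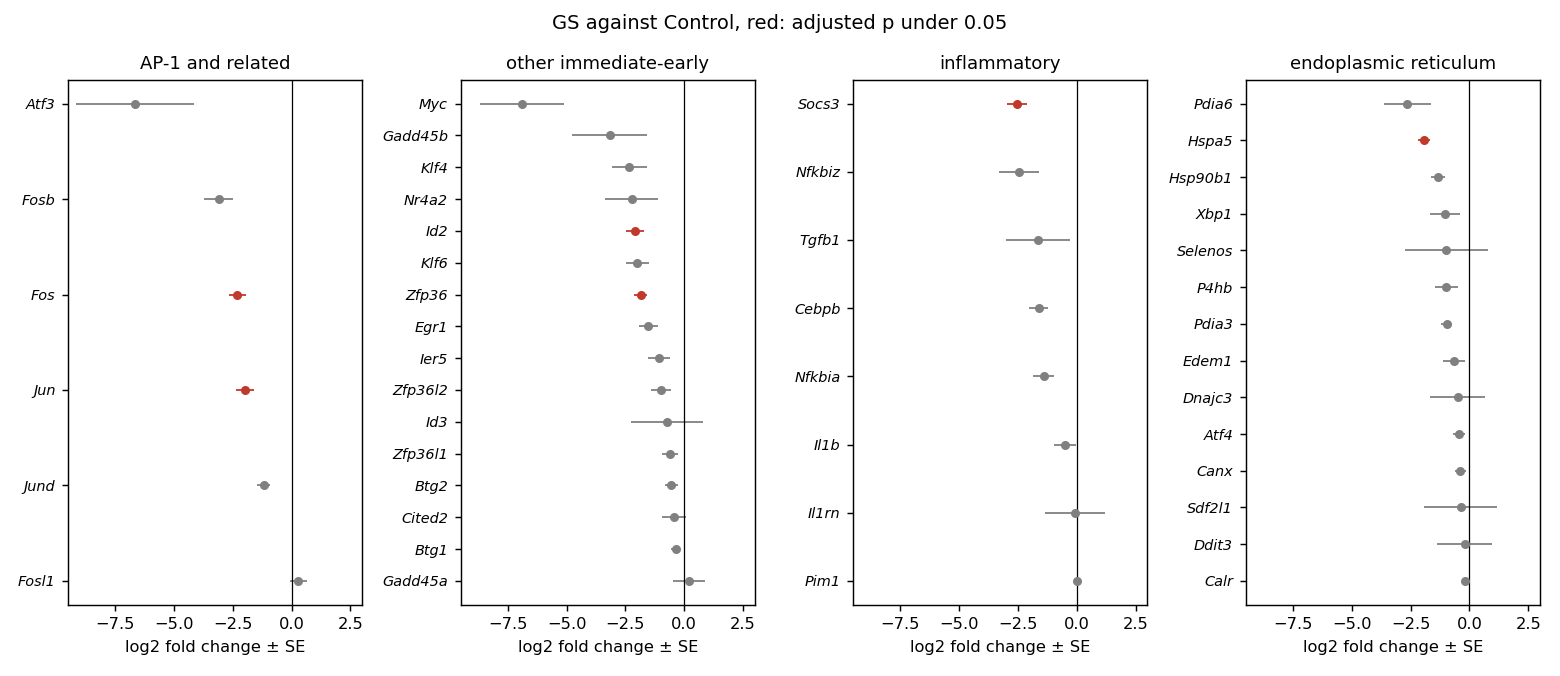
Log2 fold change ± SE of GS against Control for every tested member of 4 gene lists, AP-1 and related factors, other immediate-early genes, inflammatory signaling and feedback, and endoplasmic reticulum chaperones and stress. Genes past an adjusted p of 0.05 are red, namely Fos, Jun, Id2, Zfp36, Socs3 and Hspa5, and most other members lie below 0 with standard errors that differ widely.

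Hspa5 (BiP), the central Hsp70 of the endoplasmic reticulum, was lower in GS blood. It had 0.325, 0.743 and 0.807 FPKM in GS libraries, against 2.56, 2.97 and 2.44 FPKM in Control libraries. GS 1 was the lowest library, and the highest GS library was well under the lowest Control library. The log2 fold change was -1.94 ± 0.26 (adjusted p = 0.00368, edgeR), a level 3.82-fold higher in Control. Hsp90b1 (Grp94), the Hsp90 of the same compartment, had 0.104, 0.139 and 0.129 FPKM in GS and 0.342, 0.371 and 0.341 FPKM in Control. Its groups were tight and apart, and its log2 fold change of -1.32 ± 0.30 did not pass (adjusted p = 0.0759, edgeR). Pdia3, which makes disulfide bonds in glycoproteins, had 0.367, 0.541 and 0.483 FPKM in GS and 0.819, 1.25 and 0.984 FPKM in Control (adjusted p = 0.0987, edgeR).

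All 14 tested members of the endoplasmic reticulum list had a log2 fold change below 0 (53.7% of all genes did), with a median of -0.81. Of the 14, 1 passed the edgeR test (0.646% of all genes did) and 3 (Hspa5, Hsp90b1 and Pdia3) passed in DESeq2. Calr (calreticulin), a calcium-binding chaperone and by far the most abundant member at a mean of 17.7 FPKM, differed little, with 13.8, 17.3 and 14.8 FPKM in GS and 17.4, 17.7 and 23.2 FPKM in Control (log2 fold change -0.17 ± 0.14, adjusted p = 0.804, edgeR). A list of heat shock genes of the cytosol and mitochondria, made from symbols, had 12 tested members. Entries without a symbol, given below, are not in it. Of the 12 members 0 passed in edgeR (2 lower and 0 higher at an unadjusted p under 0.05). DESeq2 called 1 of them (Hspa8), limma called 0, and the median was -0.39. Hspa8, the constitutive Hsp70, had 0.622, 0.923 and 0.437 FPKM in GS and 1.20, 1.27 and 2.04 FPKM in Control (adjusted p = 0.112, edgeR). Hsp90aa1 stood at -0.16 ± 0.24 and Hsp90ab1 at 0.34 ± 0.87.

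Chaperone genes of the endoplasmic reticulum are known to share a stress response element in their promoters, a CCAAT box and a CCACG box held a fixed distance apart, bound by NF-Y and ATF6. The 250 bases before the start of each gene were read from RefSeq promoters (build GRCr8) and searched on both strands for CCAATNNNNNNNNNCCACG. A promoter was found for 12 of the 14 genes, and 6 of these held the element (Calr, Canx, Dnajc3, Hsp90b1, Hspa5 and Xbp1), where 22 of 33469 promoters, or 0.0657%, did. The CCAAT box alone, which is part of the element, was in 34.0% of all promoters and in 11 of the 12. The 6 genes with the element had log2 fold changes from -1.94 to -0.17, and the 6 without it from -0.99 to -0.20, so among these 12 the element was found in the members that differed most and least between GS and Control. The promoters of Hspa5 (chr3:38452766-38453015, plus strand), Hsp90b1 (chr7:23012294-23012543, minus strand), Calr (chr19:40213117-40213366, plus strand) and Canx (chr10:35157858-35158107, minus strand) are shown because they carry the element at both ends of that range, with its fixed letters in capitals.
Hspa5: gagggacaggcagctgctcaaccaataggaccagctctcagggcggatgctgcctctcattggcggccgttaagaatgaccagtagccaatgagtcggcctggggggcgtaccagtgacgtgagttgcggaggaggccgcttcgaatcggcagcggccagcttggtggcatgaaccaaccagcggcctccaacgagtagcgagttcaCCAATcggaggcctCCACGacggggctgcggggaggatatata
Hsp90b1: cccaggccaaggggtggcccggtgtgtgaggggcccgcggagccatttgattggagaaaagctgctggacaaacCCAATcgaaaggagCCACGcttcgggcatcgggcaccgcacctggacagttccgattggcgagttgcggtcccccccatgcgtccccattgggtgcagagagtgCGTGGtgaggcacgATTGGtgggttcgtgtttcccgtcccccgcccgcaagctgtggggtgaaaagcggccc
Calr: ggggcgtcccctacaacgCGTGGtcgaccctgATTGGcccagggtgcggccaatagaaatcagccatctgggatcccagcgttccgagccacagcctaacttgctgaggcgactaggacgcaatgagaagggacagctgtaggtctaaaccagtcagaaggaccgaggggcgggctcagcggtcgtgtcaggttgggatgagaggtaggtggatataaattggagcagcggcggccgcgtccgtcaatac
Canx: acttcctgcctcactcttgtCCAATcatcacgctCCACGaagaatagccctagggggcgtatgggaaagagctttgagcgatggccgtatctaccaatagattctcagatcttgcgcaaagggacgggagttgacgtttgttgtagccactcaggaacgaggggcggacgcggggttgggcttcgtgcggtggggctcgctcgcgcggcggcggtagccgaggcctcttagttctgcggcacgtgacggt

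The element began 43 bases before the start in Hspa5 and 230 bases before it in Canx. Hsp90b1 held it at 176 bases and, on the other strand, at 72 bases, and Calr held it on the other strand at 232 bases. Of the 11 genes lower in GS with a promoter at hand, Hspa5 alone held this element. Promoters were matched by symbol, and to which of the 2 entries named H3f3a the promoter of that name belongs was not checked. The AP-1 site TGANTCA (6.34% of all promoters) and the cyclic AMP element TGACGTCA (1.59%) were searched in the same windows on both strands and were in 0 of these 11. Of the 3 AP-1 genes with a promoter 1, Jund, held TGACGTCA.

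Apoe, which is known for macrophages, and the integrin gene Itgb5 fell in GS blood. Apoe, the lipid carrier that macrophages secrete, had 0.320, 1.11 and 1.38 FPKM in GS libraries, against 4.25, 4.41 and 4.55 FPKM in Control libraries. The Control libraries were tight while GS 1 was lower than GS 2 and GS 3. The log2 fold change was -2.08 ± 0.36 (adjusted p = 0.0257, edgeR). Itgb5, an integrin beta chain that pairs with the alpha V chain to bind vitronectin, was at 0 in all GS libraries, against 0.164, 0.138 and 0.112 FPKM in Control. With 12 counts over the GS group as the limit that a count of 0 allows, Itgb5 was at least 6.04-fold lower in GS (adjusted p = 0.0324, edgeR). Apoe passed the test in 12 of 22 alternatives and Itgb5 in 8 of 21.

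The monocyte markers were mixed. Csf1r, the receptor for macrophage colony-stimulating factor, had 0, 0 and 0.0813 FPKM in GS and 0.130, 0.174 and 0.201 FPKM in Control (log2 fold change -2.47 ± 0.99, adjusted p = 0.486, edgeR). Lyz2, the lysozyme of monocytes and neutrophils, overlapped between the groups at 4.85 to 5.80 FPKM in GS and 3.79 to 8.47 FPKM in Control. Of the 12 tested monocyte genes 8 had a log2 fold change below 0 (53.7% of all genes tested), with a median of -0.50. At an unadjusted p under 0.05, 3 were lower and 0 higher (6.29% and 2.56% of all genes). The summed level of the monocyte list was 6.52 to 7.78 FPKM in GS and 6.61 to 12.6 FPKM in Control, with overlap, and Lyz2 made up much of it. Of the 14 tested genes of lipid handling and macrophages 1 fell (0.618% of all genes), 13 lay below 0 and the median was -0.51. At an unadjusted p under 0.05, 6 of these 14 were lower and 0 higher. On the scaled counts 8 of the 14 had all GS libraries below all Control libraries, where 10.7% of all genes did. Psap, the precursor of lysosomal saposins, had 0.512, 0.905 and 0.725 FPKM in GS and 1.24, 1.30 and 1.74 FPKM in Control (adjusted p = 0.221, edgeR). The 3 Ftl1 entries (ferritin light chain) and Fth1 (ferritin heavy chain) stood between -0.64 and -0.37 without passing.

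Other white cells showed no call in edgeR. Of 11 tested neutrophil genes 0 passed, also at an unadjusted p under 0.05, with a median of -0.10 and a summed level of 19.5 to 22.1 FPKM in GS and 18.9 to 30.1 FPKM in Control. The T cell list (6 tested, median -0.45), the B cell list (4 tested, median -0.26) and the list of NK and cytotoxic cells (8 tested, median -0.22) had 0 calls, also at an unadjusted p under 0.05. DESeq2 and limma likewise called 0 genes of these 4 lists. Among the T cell genes Cd3d, a chain of the T cell receptor complex, was at 0.0769 to 0.177 FPKM in GS and 0.191 to 0.280 FPKM in Control. The part of cell numbers in the falls of Apoe and Itgb5 was not tested.

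**Figure D4:**
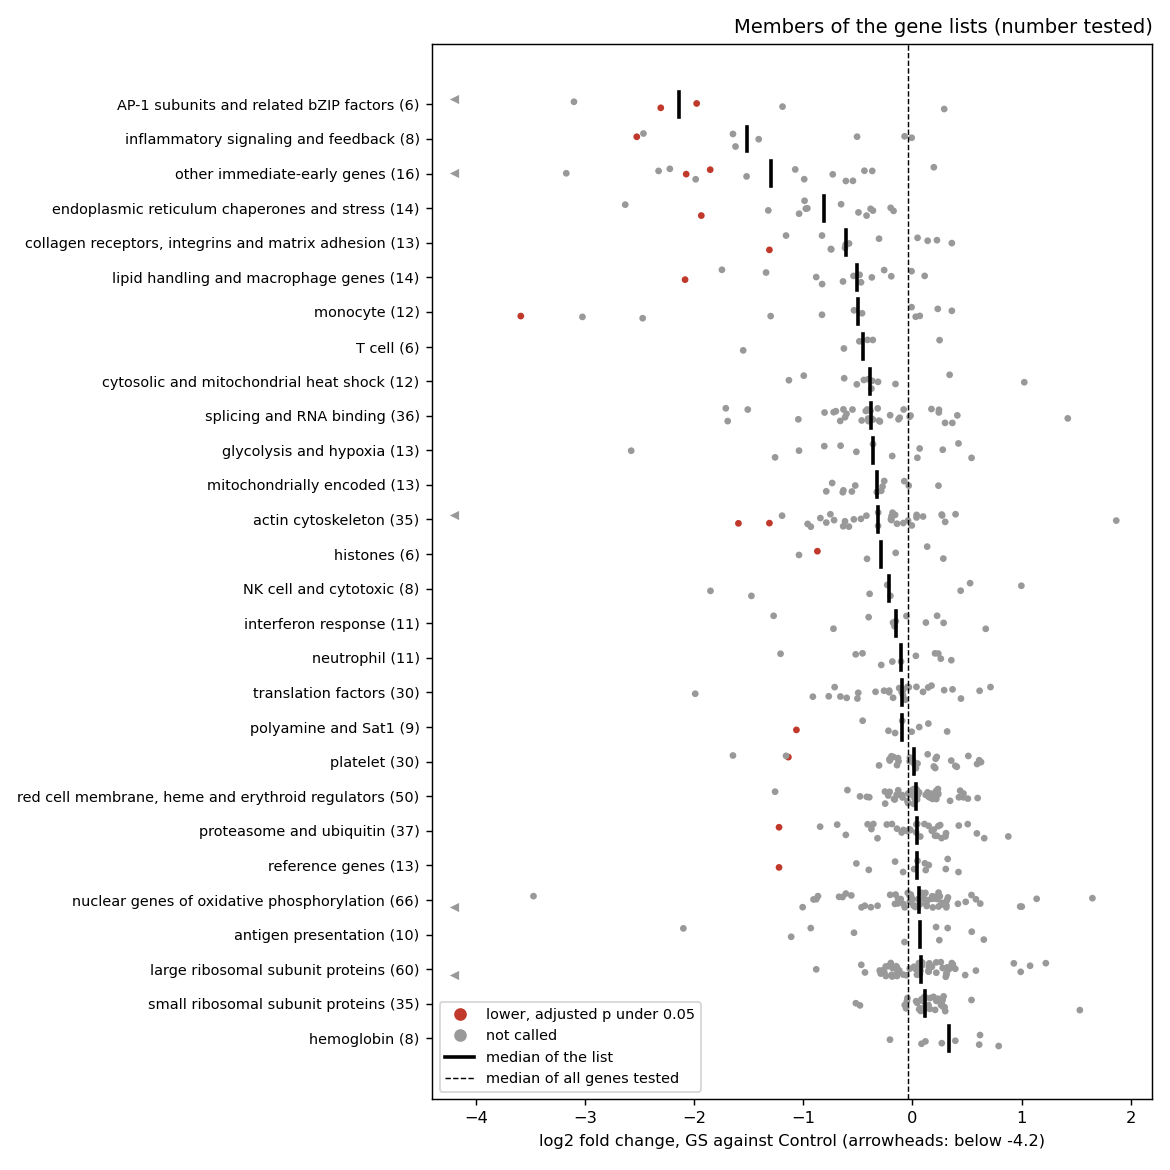
Log2 fold change of GS against Control for each tested member of the lists with 6 or more tested genes (points, number tested in brackets, arrowheads for values beyond the axis), with the median of each list as a bar and that of all genes tested as a dashed line. The AP-1, inflammatory, immediate-early and endoplasmic reticulum lists have medians from -2.14 to -0.81, and the red cell, platelet, ribosomal and proteasome lists lie close to the dashed line at -0.04.

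Platelet genes were spread around 0 with 1 exception. Thbs1 encodes thrombospondin 1, an adhesive protein of platelet alpha granules that monocytes also make. It had 0.255, 0.410 and 0.248 FPKM in GS libraries, against 0.747, 0.728 and 0.779 FPKM in Control libraries. The Control values were nearly equal, and all GS values lay under them. The log2 fold change was -1.14 ± 0.21 (adjusted p = 0.0257, edgeR). Of the 30 tested platelet genes 1 fell, 0 rose and 13 were below 0 (0.618%, 0.0281% and 53.7% of all genes). Their median was 0.02, or -0.17 by library totals. Thbs1 also passed in DESeq2, and limma called 0 of the 30. Pf4, the alpha granule chemokine, was at 280 to 372 FPKM in GS and 344 to 474 FPKM in Control, with overlap. Clec1b, the receptor for podoplanin, had a log2 fold change of 0.39 ± 0.15 and Plek, a substrate of protein kinase C, 0.59 ± 0.26, and neither passed. Of the 4 tested coagulation genes 0 passed in edgeR, DESeq2 or limma (1 lower at an unadjusted p under 0.05 in edgeR), with F13a1, the transglutaminase that crosslinks fibrin, at -0.13 ± 0.25.

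Actin-binding proteins held 2 calls. Capzb caps the growing end of actin filaments and had 0.130, 0.164 and 0.118 FPKM in GS, against 0.397, 0.590 and 0.415 FPKM in Control. Its groups did not overlap and its log2 fold change was -1.59 ± 0.28 (adjusted p = 0.0217, edgeR). Flna, filamin A, which crosslinks actin and ties it to integrins and to platelet glycoprotein Ib, had 0.0929, 0.175 and 0.184 FPKM in GS, against 0.364, 0.381 and 0.526 FPKM in Control. GS 1 was lowest, and the log2 fold change was -1.31 ± 0.23 (adjusted p = 0.0257, edgeR). Of the 35 tested members of the actin list, 2 fell, 0 rose and 27 lay below 0 (0.618%, 0.0281% and 53.7% of all genes). Their median was -0.31, against -0.04 over all genes tested. On log2(FPKM + 0.1), limma called 0 of these 35 genes.

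Lcp1 (plastin of white cells), Actr3 (a subunit of the Arp2/3 complex) and Cfl1 (cofilin) had log2 fold changes of -1.19 ± 0.28, -0.72 ± 0.18 and -0.63 ± 0.19 and did not pass in edgeR, while DESeq2 called Lcp1 and Actr3. Abundant members differed less, with Actb (beta actin) at -0.16 ± 0.14 and Arpc2, another Arp2/3 subunit, at 0.10 ± 0.15. In a list of 13 tested collagen receptors, integrins and adhesion genes, which does not hold Itgb5, Flna passed in edgeR and DESeq2 and 0 genes in limma, and the median was -0.61. Itgb1, the beta 1 chain of the collagen and fibronectin receptors, had 0.571, 0.694 and 0.482 FPKM in GS and 1.06, 1.02 and 1.23 FPKM in Control (adjusted p = 0.163, edgeR). Gp6, the collagen receptor of platelets, stood at 0.05 ± 0.33, and Itga2b, the platelet integrin chain, at 0.14 ± 0.30.

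Sat1 and an entry of H3f3a also fell. Sat1, which acetylates spermidine and spermine for export, had 0.552, 0.646 and 0.793 FPKM in GS and 1.49, 1.47 and 1.74 FPKM in Control (log2 fold change -1.06 ± 0.22, adjusted p = 0.0464, edgeR). Sat1 passed in 6 of 22 alternatives. Of 9 tested polyamine genes it was the only call (0.646% of all genes were called), with Odc1, the first enzyme of polyamine synthesis, at 0.15 ± 0.16.

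The table holds 2 tested entries named H3f3a, the histone variant H3.3. The entry on chromosome 10, ENSRNOG00000006532, had 1.62, 2.43 and 2.44 FPKM in GS, against 4.24, 4.31 and 4.76 FPKM in Control (log2 fold change -0.87 ± 0.16, adjusted p = 0.0257, edgeR). The entry on chromosome 13, ENSRNOG00000003220, was far more abundant and had 93.1, 107 and 98.1 FPKM in GS and 89.3, 92.3 and 93.7 FPKM in Control (log2 fold change 0.28 ± 0.12, adjusted p = 0.523, edgeR). How reads were shared between these entries was not tested, so the lower value of the first entry is uncertain as a gene level.

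Genes without a usable symbol made up 7 of the 22 falls. ENSRNOG00000067483 (chromosome 1, 23638268 to 23638719, with no genome build named for the table's coordinates) carries the GO term ferric iron binding. It had 0 counts in all GS libraries, against 48, 71 and 57 counts, or 2.40, 3.60 and 2.93 FPKM, in the Control libraries. With the same limit of 12 counts over the group it was at least 12.5-fold lower in GS, with the lowest adjusted p of all genes (0.00032, edgeR). ENSRNOG00000033776, described in the table as ferritin light chain 2, had 0.967, 1.64 and 1.16 FPKM in GS and 2.50, 2.66 and 3.39 FPKM in Control (log2 fold change -1.01 ± 0.20, adjusted p = 0.0353, edgeR). How reads were shared among related ferritin entries was not tested, so the values of both entries are uncertain.

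ENSRNOG00000050647 and ENSRNOG00000045654 lie on opposite strands of the same stretch of chromosome 20, from 3856006 to 3873240 and to 3873227. The first has KEGG terms that include spliceosome, protein processing in endoplasmic reticulum, MAPK signaling, estrogen signaling, endocytosis, and antigen processing and presentation. The endoplasmic reticulum and heat shock lists were made from symbols and do not hold it. This entry had 0.151, 0.266 and 0.157 FPKM in GS, against 0.801, 0.760 and 1.14 FPKM in Control (log2 fold change -2.05 ± 0.24, adjusted p = 0.00123, edgeR). The second had 0.119, 0.213 and 0.127 FPKM in GS and 0.575, 0.764 and 0.503 FPKM in Control (log2 fold change -1.83 ± 0.31, adjusted p = 0.019, edgeR). The library protocol marks the strand, but whether the counting used it is not given in the sources used here, so the reads of this pair cannot be told apart. The last 3 were AABR07037203.1 (described as similar to Fusion, an RNA-binding protein), AABR07029581.1 (ring finger protein 130) and ENSRNOG00000066746 (with the GO activity of a glyceraldehyde-3-phosphate dehydrogenase), at log2 fold changes of -1.81, -1.67 and -0.97. Gapdh itself, the annotated glycolytic gene, stood at 0.42 ± 0.14 (adjusted p = 0.321, edgeR), on the other side of 0 from this entry.

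**Figure D5:**
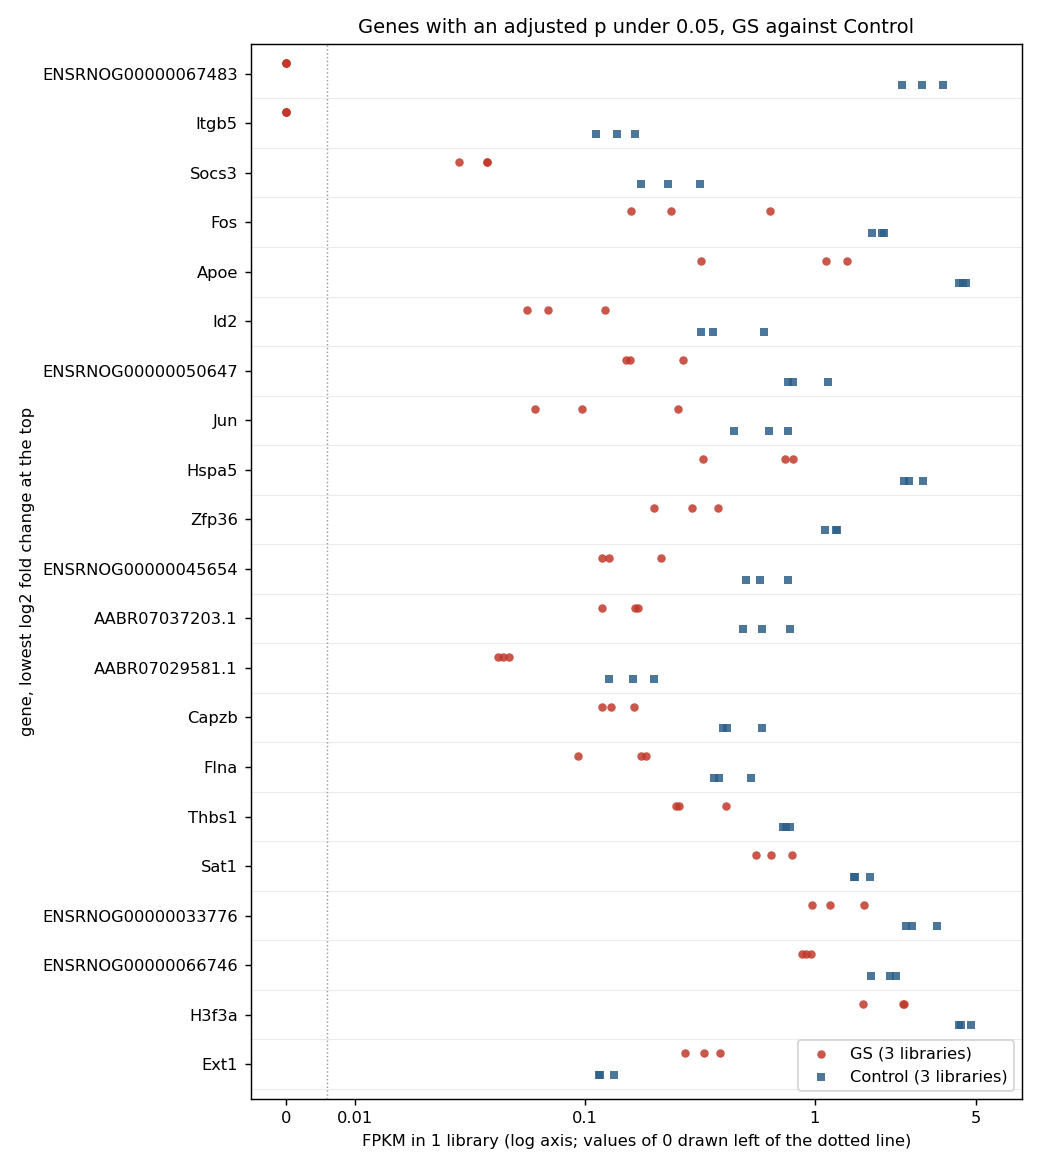
FPKM (log axis, values of 0 drawn left of the dotted line) in each GS (circles) and Control library (squares) for 20 of the 22 genes lower and the 1 gene higher in GS. The lower genes have no overlap between GS and Control libraries, the GS libraries of ENSRNOG00000067483 and Itgb5 are all at 0, and Ext1 at the bottom lies the other way.

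The only gene that rose in the edgeR test was Ext1, a glycosyltransferase that builds the sugar chain of heparan sulfate. It had 0.329, 0.385 and 0.271 FPKM in GS libraries, against 0.116, 0.134 and 0.115 FPKM in Control libraries. All GS libraries were above all Control libraries, and the log2 fold change was 1.58 ± 0.31 (adjusted p = 0.0335, edgeR). Ext1 was above 0 in all 21 alternatives in which it was tested and passed in 9 of them. Its nearest followers did not pass. Timm23, the channel of the inner mitochondrial membrane that imports proteins, had 1.74, 1.77 and 2.14 FPKM in GS and 0.840, 1.17 and 1.10 FPKM in Control (log2 fold change 1.04 ± 0.23, adjusted p = 0.0653, edgeR). Eif3k, a subunit of initiation factor 3, had 1.67, 1.95 and 1.88 FPKM in GS and 1.27, 1.49 and 1.26 FPKM in Control (adjusted p = 0.174, edgeR).

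Tsg101, a sorting factor of endosomes, stood at 0.70 ± 0.21 and Cd9, a tetraspanin of platelets and reticulocytes, at 0.61 ± 0.19, and neither passed. Cd9 shows how the scale matters, since its FPKM values overlapped at 2.35 to 3.67 in GS and 1.70 to 2.87 in Control while the scaled counts did not. With the counts scaled by library totals alone the median of all genes tested was -0.23, a shift of -0.19 against which small differences are read.

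Genes of the red cell and of protein synthesis had list medians close to the median of all genes. Of 50 tested genes of the red cell membrane, heme synthesis and erythroid regulation 0 passed (0 lower and 4 higher at an unadjusted p under 0.05) and the median was 0.04, or -0.15 by library totals. Gpx1, the glutathione peroxidase of red cells, had a log2 fold change of 0.47 ± 0.18 and Car1, carbonic anhydrase 1, 0.51 ± 0.17. The 60 large and 35 small ribosomal subunit protein genes had medians of 0.08 and 0.12, and 66 nuclear genes of oxidative phosphorylation 0.06, with 0 calls in each. A log2 fold change below 0 was seen in 23 large subunit, 6 small subunit and 27 oxidative phosphorylation genes, against 53.7% of all genes. On the scaled counts all GS libraries were above all Control libraries for 8, 6 and 5 of them (6.49% of all genes). The GS libraries were all below for 2, 1 and 2 (10.7% of all genes). At an unadjusted p under 0.05 the large subunit list held 2 lower and 6 higher genes, the small subunit list 0 and 2, and the oxidative phosphorylation list 2 and 2. DESeq2 and limma called 0 genes of the red cell, ribosomal and oxidative phosphorylation lists. The 13 mitochondrially encoded genes had a median of -0.33, with 12 below 0 (53.7% of all genes). They had 0 calls in edgeR, DESeq2 or limma and 1 lower gene at an unadjusted p under 0.05 in edgeR.

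The alpha globin gene Hba-a2 had 112629, 115821 and 114887 FPKM in GS, against 103111, 99833 and 89742 FPKM in Control. Its groups did not overlap and its log2 fold change of 0.39 ± 0.12 did not pass (adjusted p = 0.241, edgeR). Hbb-b1, the most abundant beta globin gene, had 160407, 156840 and 157143 FPKM in GS and 164056, 167090 and 173461 FPKM in Control. Its FPKM was thus lower in every GS library, while its log2 fold change was 0.08 ± 0.11 by the edgeR scaling and -0.10 by library totals, so it has no direction that holds across scalings. Hbg1 and Hbe2 had standard errors over 3 on the log2 scale. How reads were shared among related globin genes was not tested, so their values are uncertain. Of 36 tested splicing and RNA-binding genes 0 passed in edgeR, 29 lay below 0 (53.7% of all genes) and the median was -0.38. At an unadjusted p under 0.05, 6 of the 36 were lower and 1 higher (6.29% and 2.56% of all genes). DESeq2 called 1 of them, the splicing factor Srsf11, and limma called 0. Among them Hnrnpab and Ddx5 stood at -0.63 ± 0.21 and -0.40 ± 0.14.

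The functions given in the table's own KEGG and GO columns were counted for terms with at least 10 tested genes. Of the 3561 genes 1558 had a KEGG term and 2824 a GO term that was used here. In 219 KEGG terms, 11 held at least 3 genes lower in GS and 0 held at least 3 higher genes. The highest shares were TNF signaling pathway with 3 of 22 (Fos, Jun and Socs3), estrogen signaling pathway with 3 of 28 and osteoclast differentiation with 3 of 30. Next came focal adhesion with 4 of 48 (Flna, Itgb5, Jun and Thbs1) and measles with 3 of 38. Of all 3561 genes tested, with or without a KEGG term, 0.618% were lower. The share among the 1558 genes with a KEGG term was not computed, so these shares have no like base. Fos stands in 4 and Jun in all 5 of the terms named, so the terms are not separate results. Their median log2 fold changes were -0.36, -0.37, -0.87, -0.42 and -0.33. In 561 GO terms only protein binding (4 of 506) and cytoplasm (3 of 984) held at least 3 lower genes, at shares of 0.791% and 0.305%.

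The DNAgel libraries share the Control libraries with this comparison, and their levels are given beside it without a test. Fos had 1.57, 2.44 and 1.49 FPKM, Apoe 4.68, 5.31 and 4.17 FPKM and Hspa5 2.47, 2.80 and 2.23 FPKM in DNAgel libraries, all above their GS values. Zfp36 had 1.02, 1.70 and 1.14 FPKM and Socs3 0.157, 0.194 and 0.204 FPKM in DNAgel, also above their GS values. These genes were chosen for low values in the same GS libraries, so nothing is read from that order. Ext1 had 0.134, 0.245 and 0.127 FPKM in DNAgel, below its GS values and overlapping its Control values.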

How the data were processed

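Poly(A) RNA of 9 rat blood libraries was sequenced in pairs; the strand was marked with dUTP and the adapters carried unique molecular identifiers. The submitters' processing notes name the tools edgeR, DESeq2, StringTie 1.3.4d, HISAT2 2.0.4, cutadapt 1.9 and UMI-tools without roles, and a mouse build, while the genes carry rat identifiers, so the build of the table's coordinates is not known. The authors deposited an estimated count and an FPKM per gene and library. The estimated counts were whole numbers whose most frequent value above 0 was 4, so the limit for a count of 0 was set at 3 such units, or 12 counts over a group. Such limits cover counting error only. The FPKM was used as deposited, and 0 columns were of unknown sample.

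Counts of the 3561 genes were tested with edgeR 4.0.16 (R 4.3.3, TMM scaling, robust quasi-likelihood F test) in 1 fit of all 9 libraries, contrast GS minus Control, with Benjamini-Hochberg adjustment over all genes tested and a threshold of 0.05. The fit was tested on simulated data. The SE was taken as the size of the log2 fold change over the root of its F statistic. Library values were compared with exact permutation tests (scipy 1.17.1). Alternatives used DESeq2 1.42.0, limma 3.58.1 on log2(FPKM + 0.1) and log2(FPKM + 1), other scalings and filters, and each library left out. The members, gene lists and tests were chosen with earlier results of these data known, and lists were described by counts and medians without a test.

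Named genes were the called genes with a symbol, a mean FPKM of at least 0.5 and no overlap between groups, the 5 nearest higher genes, up to 3 genes per list at or above that level, the hemoglobin genes and the most abundant genes. The remaining genes were chosen after their values were seen, among them Itgb5, Socs3, Capzb, Flna, Ext1, Fosb, Egr1, Klf6, Myc, Atf3, Cebpb, Nfkbia, Hsp90b1, Csf1r, Lcp1 and the entries without a symbol. Of the 22 genes lower in GS, 2 are not reported here by name. GS and Control libraries with the same number deviated together (r = 0.496, 0.391 and 0.255 across genes, which are not independent), so the fit with the replicate number as a block stands beside the main count, although no source says what the number marks.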

Additional observations from a re-analysis of the deposited data

How the results depend on the processing

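The 22 genes lower in GS lay below 0 at an unadjusted p under 0.05 in each alternative in which they were tested, but the number that passed the adjusted threshold varied. The numbers lower and higher were 46 and 6 with DESeq2, 41 and 5 with no filter, 11 and 0 at a mean FPKM of at least 1, 10 and 1 with limma on log2(FPKM + 1), 6 and 0 with the GS and Control libraries alone, 22 and 0 with library totals, and 26 and 2 with counts divided by 4. The replicate block gave 9 and 0 over 9 libraries and 0 and 0 with the GS and Control libraries alone. Leaving out each library in turn gave 4 to 24 lower and 0 to 2 higher. Some of these settings used fewer libraries or genes and others did not, and the cause of the differences was not tested. Lyz2 (0.067 in the main comparison) had log2 fold changes of -0.0558 and -0.0564 in the limma fits with 0.1 and 1 added, -0.00915 at a mean FPKM of at least 1 and -0.143 with library totals, and from -0.116 (without Control 1) to 0.351 (without Control 3) with a library left out. Hbb-b1 stood at -0.0888 in both limma fits and -0.101 with library totals. Hbb-bs stood at -0.0716 in both limma fits and -0.0702 with library totals, and from -0.0911 (without GS 1) to 0.227 (without Control 1) with a library left out. None of these 3 genes passed the test. In the GS libraries Itgb5 had 0 counts and Socs3 had 8, 6 and 8, so their levels there are limited by depth.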
